A study of Mus musculus with 20 samples.

Results

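The sterol synthesis and uptake genes examined here are 8 transcripts named by symbol, *Hmgcs1*, *Idi1*, *Fdft1*, *Sqle*, *Lss*, *Cyp51*, *Insig1* and *Srebf2*, and all 8 were found among the 17101 genes of the expression table. The rule names them by symbol and uses no measured value, although they were put together with earlier results of these data known. Donor T cells were sorted from the spleens of transplanted mice at day 10 after allogeneic blood and marrow transplantation, and their polyadenylated RNA was sequenced. Donors were either *Dnmt3a* KO mice on the B6 background (the genotype label reads CD4-Cre with 2 loxP alleles, so that Cre is driven by the *Cd4* promoter and acts in T cells) or WT littermates, and the recipients were irradiated B6D2F1 (F1) mice. The question was how loss of the DNA methyltransferase DNMT3a in donor T cells changed their transcripts. There were 5 groups of 4 libraries: CD4+ T cells from KO donors, CD8+ T cells from KO donors, CD4+CD8+ double-positive (DP) T cells from KO donors, CD4+ T cells from WT donors and CD8+ T cells from WT donors. Donors were 6 to 12 weeks old and recipients 8 to 12 weeks old in every group, and all the cells came from an alloreactive setting with no untransplanted control among these libraries. Each library label carries a number, KO1 to KO4 or WT2, WT3, WT5 and WT6, which is shared by the CD4, CD8 and, in KO, DP libraries. The labels do not say what the number stands for, and they do not state that libraries of a group came from separate animals, so p-values measure the spread between these libraries.

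Cells obtain cholesterol by making it from acetyl-CoA through the mevalonate pathway and by taking up lipoproteins, and activated T cells that grow and divide raise both routes. When sterol in the endoplasmic reticulum is scarce, the transcription factor SREBP2, encoded by *Srebf2*, is carried to the Golgi, cleaved there and moved to the nucleus, where it turns on the enzyme genes and genes of lipoprotein uptake. INSIG proteins hold SREBP2 and its escort SCAP back when sterol is plentiful, and *Insig1* is itself a target of SREBP2, so that the regulator and its brake sit in a single loop. In the order of the pathway, *Hmgcs1* makes HMG-CoA, *Idi1* isomerizes isopentenyl pyrophosphate, *Fdft1* makes squalene, *Sqle* oxidizes it, *Lss* closes it into lanosterol and *Cyp51* demethylates lanosterol.

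Since the 8 genes are described together, the sequence upstream of their starts is shown for 4 of them: *Hmgcs1*, the entry enzyme, *Idi1* and *Cyp51*, whose counts varied most among KO libraries, and *Insig1*, the feedback gene. Each line gives the 250 bases before the annotated transcription start, 5′ to 3′ on the gene's own strand, from RefSeq on build GRCm38.p6. Capitals mark matches, on either strand, to TCACNCCAC (a form of the sterol regulatory element bound by SREBP), to CCAAT (the NF-Y box, read as ATTGG on the other strand) or to CACGTG (an E-box); none of these matches overlapped another.
Hmgcs1, chr13:119690101-119690350, plus strand: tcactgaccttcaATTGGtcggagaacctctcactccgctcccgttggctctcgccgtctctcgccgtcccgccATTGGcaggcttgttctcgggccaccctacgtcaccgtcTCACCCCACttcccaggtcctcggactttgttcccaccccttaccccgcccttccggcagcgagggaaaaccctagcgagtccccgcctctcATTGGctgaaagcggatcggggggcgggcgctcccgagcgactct
Idi1, chr13:8885356-8885605, plus strand: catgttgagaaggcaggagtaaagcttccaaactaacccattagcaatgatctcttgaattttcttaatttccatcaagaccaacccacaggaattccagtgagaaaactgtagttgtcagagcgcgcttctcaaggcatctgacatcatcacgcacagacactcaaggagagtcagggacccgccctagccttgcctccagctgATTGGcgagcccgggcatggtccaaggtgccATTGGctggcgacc
Cyp51, chr5:4104698-4104947, minus strand: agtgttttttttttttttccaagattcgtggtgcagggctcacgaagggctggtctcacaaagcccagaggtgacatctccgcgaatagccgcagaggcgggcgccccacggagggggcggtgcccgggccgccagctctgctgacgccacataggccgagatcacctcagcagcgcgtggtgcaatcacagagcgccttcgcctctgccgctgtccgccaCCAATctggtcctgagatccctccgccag
Insig1, chr5:28071162-28071411, plus strand: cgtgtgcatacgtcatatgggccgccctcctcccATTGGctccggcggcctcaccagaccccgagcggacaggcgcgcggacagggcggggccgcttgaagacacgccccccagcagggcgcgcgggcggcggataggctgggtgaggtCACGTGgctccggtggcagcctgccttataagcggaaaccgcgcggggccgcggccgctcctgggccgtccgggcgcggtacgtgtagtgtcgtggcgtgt
The RefSeq table held such a promoter entry for 6 of the 8 genes, all but *Sqle* and *Fdft1*. A CCAAT box lay in 6 of these 6 windows, against 33.8% of the 32851 promoter windows of the same length. TCACNCCAC lay in 1 of 6, *Hmgcs1*, from 137 to 129 bases before its start, against 1.05% of all windows, and CACGTG lay in 1 of 6, *Insig1*, from 101 to 96 bases before its start, against 6.02%. These matches are a description of the letters in these windows.

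The libraries held between 37547651 and 46966318 reads on genes. The targeted gene and the coreceptors were checked against the labels. *Dnmt3a* ranged from 650 to 2007 normalized counts in the 12 KO libraries and from 3542 to 5171 in the 8 WT libraries (the rows of the table count the whole gene, so remaining exons of the floxed allele and unrecombined cells are both included). *Cd4* ranged from 8758 to 15351 in the DP libraries, from 44804 to 74386 in CD4 libraries and up to 458 in CD8 libraries. The KO1 CD4 library stood apart with 3771 normalized counts of *Cd8a*, against at most 586 in the other CD4 libraries, and the KO3 DP library had the fewest detected genes of all, 11783.

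Every one of the 8 genes was expressed in every library. Per kilobase of annotated exon and over the 20 libraries, the mean level (mean ± SD) was highest for *Srebf2* at 1861 ± 383 normalized counts per kb, followed by *Hmgcs1* at 800 ± 173, *Idi1* at 667 ± 253 and *Insig1* at 526 ± 112. *Cyp51* (471 ± 156), *Fdft1* (449 ± 99.0) and *Sqle* (443 ± 124) came next, and *Lss* was lowest at 163 ± 30.4. The steps from *Hmgcs1* to *Idi1*, from *Idi1* to *Insig1*, and among *Insig1*, *Cyp51*, *Fdft1* and *Sqle* were smaller than the SD of at least 1 of the neighbours, whereas *Srebf2* lay above and *Lss* below their neighbours by more than the SD of both.

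*Srebf2*, the regulator, was compared between genotypes first. In CD4+ T cells its normalized counts were 9525, 13406, 10354 and 8545 in KO1 to KO4 and 9966, 6747, 8114 and 8457 in WT2, WT3, WT5 and WT6. In CD8+ T cells they were 6165, 9948, 9392 and 7708 in KO and 8591, 6155, 6564 and 7874 in WT. The KO and WT values overlapped in both subsets, and KO2 had the highest value of each comparison. *Srebf2* had the largest positive log2 fold change of KO over WT among the 8 genes in CD4+ T cells, 0.32 (95% confidence interval -0.01 to 0.65), and it did not pass the test (limma, adjusted p = 0.142; 2-sided exact permutation test p = 0.114). In CD8+ T cells the log2 fold change was 0.18 (-0.18 to 0.53, adjusted p = 0.44).

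*Idi1* had the largest absolute difference between genotypes, and in the opposite direction. Its normalized counts in CD4+ T cells were 790, 2231, 1874 and 907 in KO and 2406, 1647, 1621 and 1782 in WT, and in CD8+ T cells they were 697, 2329, 2455 and 1596 in KO and 2845, 1852, 1873 and 2708 in WT. In each subset the KO libraries spread to both sides of the WT libraries' lower end: KO1 lay below every WT library in CD4 and in CD8, and KO4 did so as well. The log2 fold change of KO over WT was -0.48 in CD4 (-1.17 to 0.20, adjusted p = 0.281) and -0.52 in CD8 (-1.33 to 0.30, adjusted p = 0.315), neither past the threshold of 0.05.

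No member was called different between KO and WT: 0 of 8 in CD4+ T cells, where 18.4% of the 12391 genes tested were called, and 0 of 8 in CD8+ T cells, where 25.2% of 12383 were. The 6 other members had log2 fold changes between -0.14 (*Cyp51*) and 0.12 (*Hmgcs1*) in CD4 and between -0.26 (*Fdft1*) and 0.07 (*Hmgcs1*) in CD8. The median over the 8 members was 0.09 in CD4 and -0.16 in CD8, beside medians over all genes tested of -0.05 and -0.04. The confidence intervals left differences of different size possible: the narrowest belonged to *Lss* in CD4+ T cells, from -0.19 to 0.36 on the log2 scale, and the widest to *Idi1* in CD8+ T cells. For *Hmgcs1*, the entry enzyme, the interval was -0.24 to 0.47 in CD4+ T cells and -0.36 to 0.51 in CD8+ T cells. The difference between the genotype effects in the CD8 and the CD4 subset, tested as an interaction term, was called for 0 of 8 members, with 0.0161% of 12446 genes called, and its estimates ran from -0.33 (*Fdft1*) to -0.03 (*Idi1*).

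**Figure D1:**
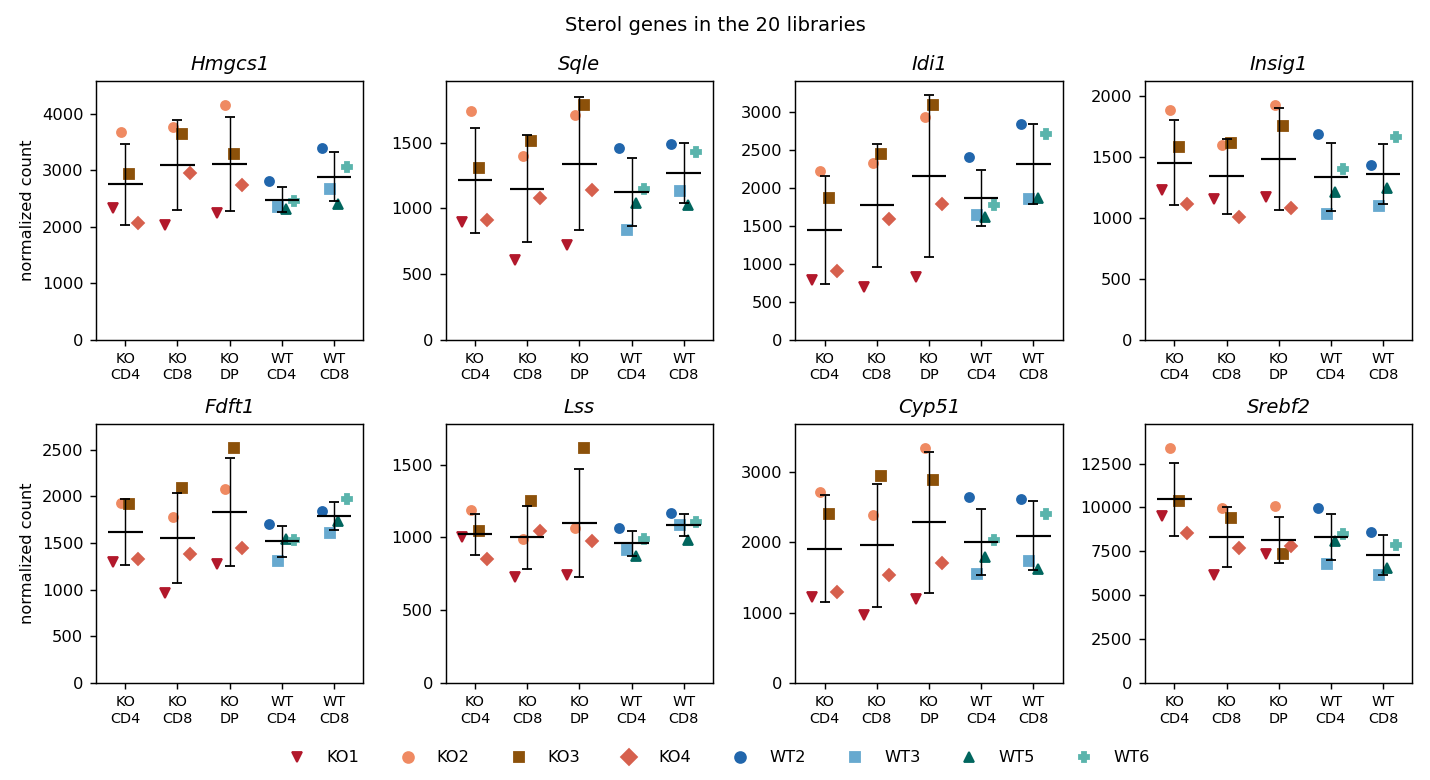
Normalized counts (vertical axes, from 0) of the 8 sterol genes in the 5 groups, 1 symbol per library, coloured and shaped by the number in the label, with the group mean (bar) and SD (whiskers, n = 4). KO and WT symbols overlapped for each gene, and the KO1 and KO4 symbols lay below the KO2 symbols throughout except for *Lss* in KO CD8, where KO4 lay above KO2.

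The members differed among the libraries of a genotype, and they did so by the number in the label. *Cyp51*, the demethylase, shows the pattern: in KO its normalized counts for KO1, KO2, KO3 and KO4 were 1222, 2720, 2401 and 1293 in CD4+ T cells, 968, 2385, 2944 and 1536 in CD8+ T cells and 1200, 3351, 2885 and 1707 in DP T cells. KO2 and KO3 were above KO1 and KO4 in each of the 3 subsets, with no exception. *Idi1* in DP T cells had 824, 2943, 3102 and 1787 normalized counts, so that here too the KO1 library was lowest and the KO2 and KO3 libraries were highest. The KO2 library held 2.83 times as many normalized counts of *Idi1* as the KO1 library in CD4, 3.34 times in CD8 and 3.57 times in DP.

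*Hmgcs1* had the same numbers high and low, at 2326, 3669, 2935 and 2061 normalized counts in CD4, 2021, 3762, 3642 and 2941 in CD8 and 2236, 4160, 3293 and 2733 in DP for KO1 to KO4. *Fdft1*, the squalene synthase gene, had 1293, 1926, 1915 and 1328 in CD4, 966, 1776, 2085 and 1380 in CD8 and 1275, 2081, 2522 and 1448 in DP. *Insig1* differed in 1 respect: KO4 and not KO1 was its lowest library in each subset, at 1110, 1001 and 1082 normalized counts in CD4, CD8 and DP, against 1227, 1155 and 1173 in KO1, and KO2 and KO3 held between 1578 and 1927. *Sqle*, which catalyses a rate-limiting oxidation, ranged from 606 (KO1 CD8) to 1790 (KO3 DP) over the 12 KO libraries, and *Lss*, the cyclase, ranged from 726 (KO1 CD8) to 1616 (KO3 DP).

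In KO CD4+ T cells, KO1 and KO4 were the lower pair for 8 of 8 members, and KO2 was the highest library for 8 of 8. In KO CD8+ T cells KO1 was among the lower pair for 8 of 8 and KO4 for 7 of 8, and KO3 was highest for 6 of 8. In DP T cells KO1 was again among the lower pair for 8 of 8 and KO4 for 7 of 8, with KO2 and KO3 each highest for 4 of 8. The mean log2 deviation of the 8 genes from their own group mean was -0.31, 0.46, 0.21 and -0.36 for KO1 to KO4 in CD4, -0.64, 0.31, 0.43 and -0.10 in CD8 and -0.58, 0.40, 0.38 and -0.19 in DP.

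The WT libraries had an order of their own. *Cyp51* had 2651, 1547, 1799 and 2039 normalized counts in WT2, WT3, WT5 and WT6 CD4+ T cells and 2613, 1730, 1622 and 2413 in CD8+ T cells, so that WT2 and WT6 were above WT3 and WT5 in both. WT2 was the highest library for 8 of 8 members in CD4 and for 6 of 8 in CD8, and WT3 was among the lower pair for 8 of 8 in both. The mean deviation of the 8 genes was 0.30, -0.24, -0.09 and 0.03 for WT2, WT3, WT5 and WT6 in CD4 and 0.21, -0.18, -0.20 and 0.17 in CD8.

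Differences between the numbers were tested across all genes with the subset held in the model (limma F test, an analysis added after the values had been seen). Between KO numbers 7 of 8 members were called, where 29.5% of 12183 genes were called, and between WT numbers 3 of 8 were called, *Idi1*, *Cyp51* and *Srebf2* (adjusted p = 0.0242, 0.00643 and 0.00582), where 0.717% of 12559 genes were called. *Cyp51* had the smallest adjusted p between KO numbers, 0.000256, with 95.4% of its within-subset sum of squares lying between numbers, and *Insig1* had the highest such share, 97.3%. The member not called in KO was *Lss* (63.7%, adjusted p = 0.0821), and *Srebf2* was called with a share of 78.6% (adjusted p = 0.0225). Over the 8 members the median share was 91.6% in KO and 89.1% in WT, beside medians over all genes tested of 62.0% and 60.2%. Without the 3 KO1 libraries 6 of 8 members were called (*Srebf2* was lost, adjusted p = 0.0669), with 11.6% of all genes called, and without the 3 KO2 libraries 5 of 8 were called (*Hmgcs1* and *Srebf2* were lost, adjusted p = 0.0622 and 0.402), with 14.8% of all genes called. Members stayed at 7 of 8 without the 3 KO4 libraries (17.8% of all genes called) and without the 3 KO3 libraries (46.1%). The same 7 of 8 were called without the KO3 DP library alone, where 51.5% of all genes were called. The median share over all genes was then 75.9%, so the share of all genes called depended strongly on this library. Without the 2 WT2 libraries *Idi1*, *Cyp51* and *Srebf2* were lost (adjusted p = 0.21, 0.0778 and 0.0664) and *Insig1* alone was called (0.0461), 2 of 8 were called without WT3 or without WT5, and 3 of 8 without WT6.

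The libraries of a genotype spread more widely in KO than in WT for 8 of 8 members in CD4 and for 8 of 8 in CD8, as the SD of the log2 values. That was also so for 81.0% of all genes in CD4 and 89.1% in CD8, so a wider KO spread was common to most genes. The coefficient of variation of *Idi1*, the most variable member in the KO groups, was 49.1% in KO CD4, 45.7% in KO CD8 and 49.4% in KO DP libraries, and 19.7% and 22.9% in WT CD4 and WT CD8. For *Fdft1* it was 21.8%, 31.3% and 31.5% in the KO groups and 10.8% and 8.66% in the WT groups.

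**Figure D2:**
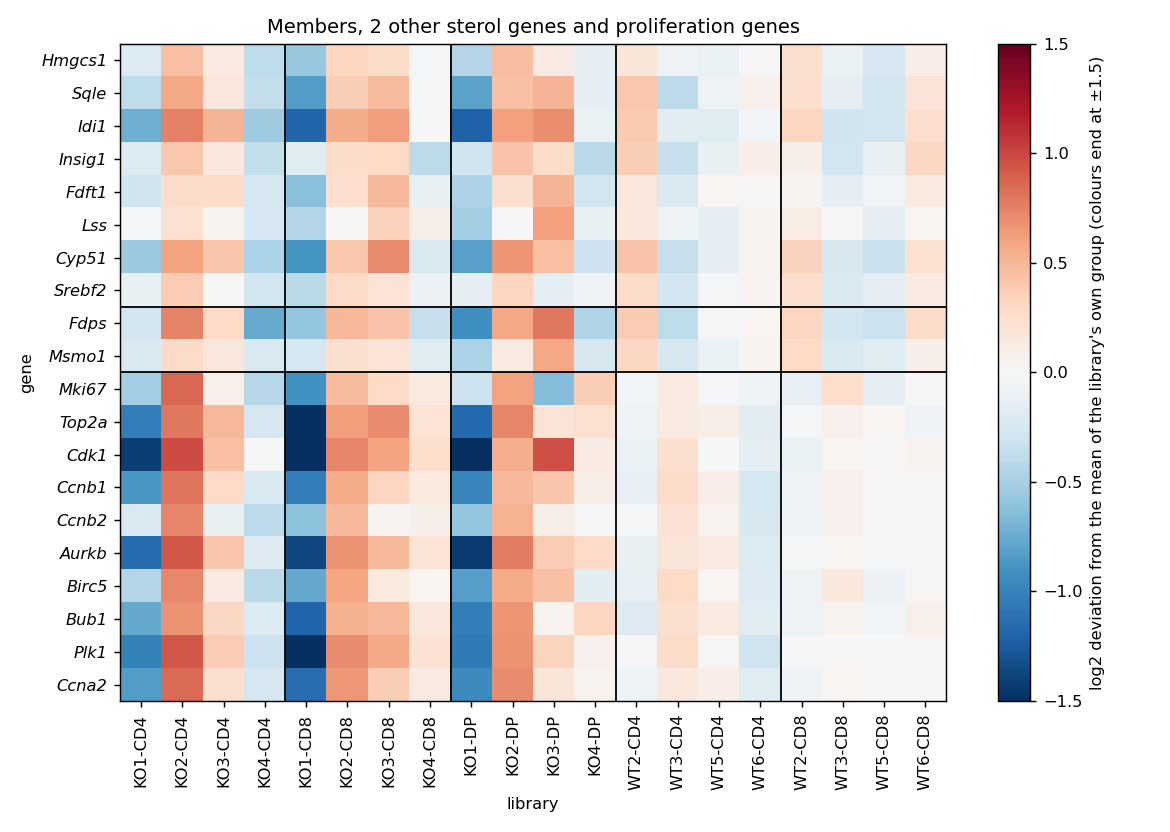
Log2 deviation of each gene (rows) from the mean of the library's own group, for the 20 libraries (columns, grouped as KO CD4, KO CD8, KO DP, WT CD4 and WT CD8), for the 8 members, 2 other sterol genes (Fdps and Msmo1) and 10 proliferation genes; red is above and blue below the group mean, and colours end at 1.5. The KO2 and KO3 columns are red and the KO1 columns blue for the sterol genes in each KO subset, except for Srebf2 in the KO3 DP library, and the WT2 columns are red for the sterol genes in both WT subsets.

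Proliferation genes moved along with part of this order. Their mean deviation was -0.83, -1.17 and -0.999 in the KO1 libraries of CD4, CD8 and DP T cells and 0.83, 0.60 and 0.62 in the KO2 libraries, and 10 of 10 of them were called between KO numbers. In WT 0 of 10 were called between numbers, and WT2, the highest library for the sterol genes, had deviations of -0.09 and -0.06. The summed level of 5 myeloid markers also differed between KO libraries, between 219 and 2494 normalized counts in CD4, between 273 and 1933 in CD8 and between 385 and 5791 in DP, and none of the 5 was at 0 in every library of a group. These markers did not share an order. *S100a8*, *S100a9* and *Lyz2* were highest in the KO3 library of each subset, whereas *Csf1r* and *Cd14* were highest in the KO1 library of each. The summed level of 9 T cell genes ranged from 184450 to 396296 over the KO libraries. The part of dividing cells and of other cell types in the sterol differences was not tested, and in bulk samples fewer cells of a type and less RNA per cell cannot be told apart.

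The genes whose deviations were most like those of the members, by Pearson's r with the mean deviation of the 8 genes over the 20 libraries, were taken from 10701 genes with a mean of at least 50 normalized counts. Among the 10 nearest, *Fdps*, which makes farnesyl pyrophosphate, had r = 0.96, and *Tmem97*, *Dck*, *Rmi2*, *Msmo1*, *Mcm2* and *Tbx21* had r from 0.93 down to 0.90. *Msmo1* encodes a sterol demethylation enzyme, *Dck* deoxycytidine kinase, *Mcm2* a subunit of the replication helicase and *Tbx21* the transcription factor T-bet. *Fdps* had 1010, 2056, 1511 and 728 normalized counts in KO1 to KO4 CD4+ T cells and 1801, 1059, 1351 and 1416 in WT2, WT3, WT5 and WT6, so that KO2 and KO3 were again above KO1 and KO4 and WT2 was again the highest WT library. It was called between KO numbers (adjusted p = 0.00162) and between WT numbers (adjusted p = 0.032). The points share numbers, depth and the make-up of the sort, so the coefficients are descriptions. Among the 28 pairs of members r ran from 0.48 to 0.97 with a median of 0.84.

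Of 14 other sterol enzymes tested, 7 were called between KO numbers, beside 29.5% of all genes, and 2 between WT numbers, beside 0.717%. *Ggps1*, which makes the longer isoprenoid geranylgeranyl pyrophosphate, had r = -0.03 with the members, and *Dhcr7*, the last reductase of the Kandutsch-Russell branch, had r = 0.23. *Rnf139* (r = -0.90), a ubiquitin ligase of the endoplasmic reticulum, and the sterol exporter gene *Abcg1* (r = -0.87) lay near the other end of the ranking.

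The CD4 and CD8 subsets were compared within each genotype. In WT, 1 of 8 members was called between CD4+ and CD8+ T cells, where 44.5% of 12559 genes were called. This was *Fdft1*, with 1702, 1303, 1540 and 1528 normalized counts in WT2, WT3, WT5 and WT6 CD4+ T cells and 1839, 1605, 1740 and 1972 in CD8+ T cells; the groups overlapped, and each CD8 library was above the CD4 library of its number. The log2 difference, CD4 minus CD8, was -0.24 (95% confidence interval -0.42 to -0.05, adjusted p = 0.036, exact permutation test p = 0.0571). The call was lost on leaving out any 1 of WT3, WT5 or WT6 from the CD4 group (adjusted p = 0.102, 0.0579 and 0.0524) or any 1 of WT2, WT5 or WT6 from the CD8 group (0.085, 0.0558 and 0.116).

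Libraries of 1 number deviated together, so the comparison was repeated with the number as a block, and 5 of 8 members were then called in WT, where 48.8% of all genes were called. *Hmgcs1* (log2 difference -0.21, adjusted p = 0.00661), *Idi1* (-0.31, 0.00288), *Fdft1* (-0.24, 0.00563) and *Lss* (-0.18, 0.0394) were lower in CD4, each in 4 of 4 numbers. *Srebf2* was higher in CD4 (0.19, adjusted p = 0.00354), also in 4 of 4 numbers. *Sqle* was lower in 3 of 4 (-0.19, 0.0748), *Insig1* in 3 of 4 (-0.04, 0.737) and *Cyp51* in 2 of 4 (-0.06, 0.497). With the number in the block the share of members called was close to the share of all genes called. The 10 proliferation genes were all lower in WT CD4 than in WT CD8 libraries (10 of 10 called, median log2 difference -0.55, median over all genes -0.01), and their part in the enzyme differences was not tested.

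**Figure D3:**
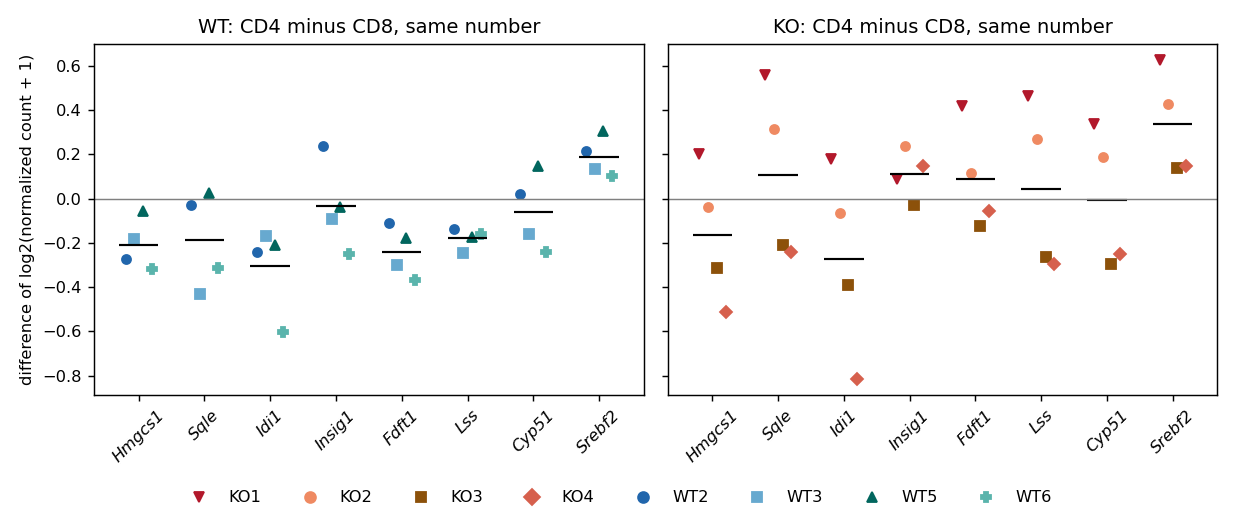
Difference of log2(normalized count + 1), CD4 minus CD8, between libraries of the same number, for the 8 members in WT (left) and KO (right), with the mean over the 4 numbers as a bar. In WT the 4 symbols lay below 0 for Hmgcs1, Idi1, Fdft1 and Lss and above 0 for Srebf2, and in KO only the Srebf2 symbols all lay on 1 side of 0.

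In KO, 0 of 8 members were called between CD4+ and CD8+ T cells, where 4.22% of 12189 genes were called. With the number as a block 1 of 8 was called, where 18.9% of all genes were: *Srebf2* was higher in CD4, by 0.34 on the log2 scale (adjusted p = 0.0239), in 4 of 4 numbers, with differences of 0.63, 0.43, 0.14 and 0.15 in KO1 to KO4. KO1 had the largest difference for *Srebf2*, and its CD4 library was also the one with *Cd8a* transcripts; their part was not tested. *Idi1* was lower in CD4 in 3 of 4 numbers (mean difference -0.27), and *Fdft1*, *Sqle*, *Lss* and *Cyp51* were lower in 2 of 4 and higher in 2 of 4.

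DP T cells from KO donors were set against both KO subsets. Against KO CD8+ T cells 0 of 8 members were called, where 0.00823% of 12153 genes were called, and the log2 differences ran from -0.01 (*Srebf2*) to 0.27 (*Idi1*). *Idi1*, *Sqle*, *Insig1* and *Fdft1* were higher in DP than in the CD8 library of the same number in 4 of 4 numbers, by means of 0.27, 0.21, 0.13 and 0.24, without passing the test with the block (adjusted p = 0.405, 0.405, 0.493 and 0.405). Against KO CD4+ T cells 0 of 8 members were called, where 1.95% of 12175 genes were called, and 0 of 8 with the block, where 7.06% were. *Srebf2* had 7354, 10090, 7363 and 7801 normalized counts in the DP libraries, each below the CD4 library of its number, with a mean log2 difference of -0.35 (-0.72 to 0.02, adjusted p = 0.354, and 0.0876 with the block). *Idi1* was higher in DP in 4 of 4 numbers, by 0.54 (-0.48 to 1.57, adjusted p = 0.579).

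Some genes of the uptake and transport list and of the fatty acid synthesis list, which were not among the 8, were called different between KO and WT. Of 9 uptake and transport genes tested, 3 were called in CD4 and 3 in CD8, beside 18.4% and 25.2% of all genes called in either direction. All of these calls were higher in KO, where 8.59% of all genes were called higher in CD4 and 12.6% in CD8. Among those called in both subsets were *Npc1* and *Npc2*, which together move cholesterol out of the lysosome. The median log2 fold change of the uptake and transport list was 0.06 in CD4 and 0.09 in CD8. Of the fatty acid synthesis genes tested, 4 of 10 were called in CD4 and 3 of 9 in CD8, beside the same shares of all genes. The CD4 count includes *Fads2*, given below as values only. *Acss2* and *Acly*, which make acetyl-CoA, were among those called in both subsets.

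*Npc1* had 5283, 5519, 4581 and 4570 normalized counts in KO1 to KO4 CD4+ T cells and 2195, 1830, 1992 and 1845 in the WT CD4 libraries. In CD8+ T cells it had 4340, 5564, 3936 and 4719 in KO and 2134, 1890, 2005 and 1883 in WT. Every KO library was above every WT library in both subsets, and the log2 fold change was 1.34 ± 0.09 (SE) in CD4 (adjusted p = 7.82e-05) and 1.22 ± 0.11 in CD8 (adjusted p = 0.000443), with an exact permutation p of 0.0286 in each, the smallest that 4 against 4 libraries can give. Among the DP libraries *Npc1* was at 4791, 5348, 1723 and 4371, and the KO3 library, the one with the fewest detected genes, was below each WT library.

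*Npc2* had log2 fold changes of 0.47 ± 0.07 in CD4 (adjusted p = 0.00503) and 0.33 ± 0.07 in CD8 (adjusted p = 0.0079). *Acss2*, which makes acetyl-CoA from acetate, was higher in KO by 0.89 ± 0.16 in CD4 (adjusted p = 0.00778) and 1.34 ± 0.17 in CD8 (0.00163). *Acly*, which makes it from citrate, was higher by 0.30 ± 0.08 in CD4 (0.0355) and 0.37 ± 0.08 in CD8 (0.0117). For each of these genes the lowest KO value was above the highest WT value in both subsets. These genes and *Npc1* were called on the same values, so their separation is a description and adds no support to the calls. The genotype effects in the subsets were not called different by the interaction test for *Npc1*, *Npc2* or *Acss2* (estimates of -0.12, -0.14 and 0.45, adjusted p of 0.894 or more). The calls of *Npc1*, *Npc2* and *Acss2* were kept in both subsets whichever library was left out, and that of *Acly* in CD8. In CD4, leaving out KO1, KO3 or any 1 WT library lost the *Acly* call (adjusted p between 0.0507 and 0.103). With all 20 libraries in a single fit, *Npc2* in CD8 (0.0635) and *Acly* in CD4 (0.0788) were not called. *Acly* in CD4 was also lost with quantile scaling (0.0581) and without the variance trend (0.0693). With the number as a block, *Npc2*, *Acss2* and *Acly* were not called in either subset (adjusted p between 0.0542 and 0.356).

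**Figure D4:**
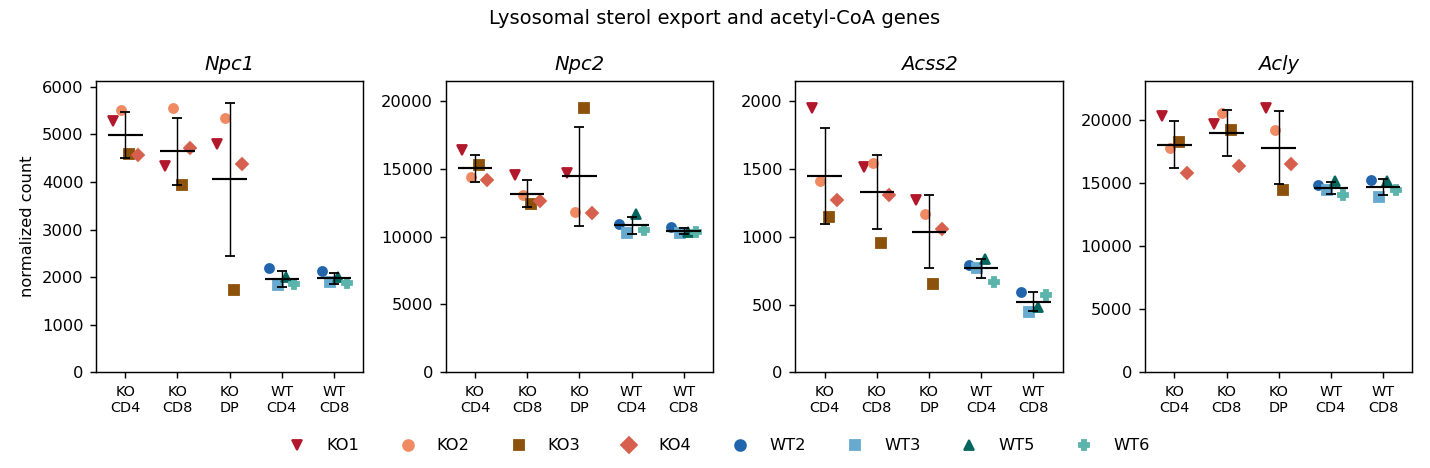
Normalized counts (vertical axes, from 0) of Npc1, Npc2, Acss2 and Acly in the 5 groups, 1 symbol per library, with the group mean (bar) and SD (whiskers, n = 4). The KO CD4 symbols lay above the WT CD4 symbols and the KO CD8 symbols above the WT CD8 symbols for each gene, and the KO3 DP library had 1723 normalized counts of Npc1.

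**Figure D5:**
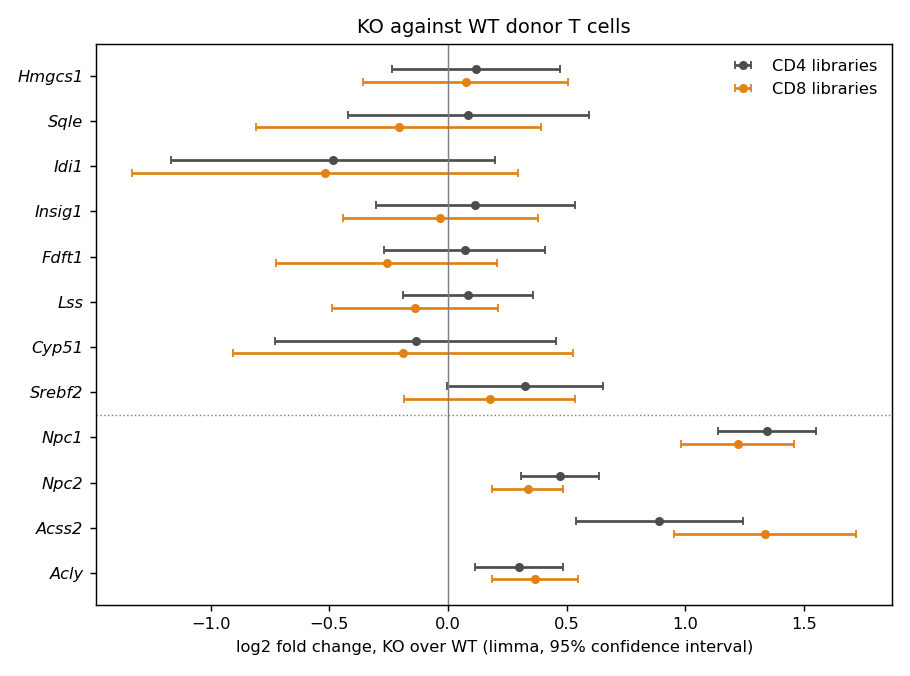
Log2 fold change of KO over WT (horizontal axis) with the 95% confidence interval from limma, for the 8 members above the dotted line and for Npc1, Npc2, Acss2 and Acly under it, in CD4 (grey) and CD8 (orange) libraries. The intervals of the 8 members include 0 in both subsets, and those of the 4 other genes lie above 0.

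In the remaining lists, read beside 18.4% of all genes called in CD4 and 25.2% in CD8, 1 of 14 other sterol enzymes was called in each subset, *Mvd* higher in CD4 (adjusted p = 0.0499) and *Tm7sf2* lower in CD8 (95% confidence interval of the log2 fold change -1.65 to -0.36, adjusted p = 0.0322). Of 6 genes of SREBP regulation, 2 were called higher in CD4, among them *Scap* (adjusted p = 0.0497), and 1 in CD8. Of 7 genes of sterol efflux and storage, 0 were called in CD4 and 3 in CD8: *Abca1*, the cholesterol exporter, at 2.20 ± 0.64, *Mylip*, a ubiquitin ligase induced by LXR, at 0.88 ± 0.26, and *Nr1h2*, which encodes the oxysterol receptor LXR-beta, at -0.41 ± 0.08. Of the fatty acid genes besides *Acss2* and *Acly*, *Scd2* was called higher in both (0.47, adjusted p = 0.0188 in CD4 and 0.0496 in CD8). A further call in CD4, *Fads2*, is given as values only, since it passed the filter on low counts through the WT libraries: its mean was 4.89 normalized counts in KO, and the call was not made by edgeR (adjusted p = 0.107) or DESeq2 (adjusted p = 0.0821). Of the calls named here only *Nr1h2* was kept whichever library was left out; *Mvd*, *Scap* and *Scd2* in CD8 were each lost with 7 of the 8 libraries left out singly, *Abca1* and *Mylip* with 6, *Tm7sf2* with 5 and *Scd2* in CD4 with 3, with adjusted p up to 0.131. Summed dendritic cell markers were lower in KO, at 145 to 295 against 516 to 594 normalized counts in CD4 and 163 to 288 against 755 to 834 in CD8. *Xcr1* was called lower in both subsets, with means of 226 in KO and 428 in WT CD4 libraries and of 205 and 621 in CD8. *Flt3* in CD4 (KO mean 1.43) and *Clec9a* in CD4 and CD8 (9.76 and 6.81) passed the filter on low counts through the WT libraries. Their values are given without a call, and 0 of the 3 markers were at 0 in every library of a group. The 5 myeloid markers had median sums of 404 in KO and 2272 in WT CD4 libraries and of 518 and 1876 in CD8. Of these 5, 1 was called lower in CD4 and 0 in CD8. In CD8 the means of *Csf1r* (202 in KO and 169 in WT) and *Cd14* (18.3 and 9.82) were higher in KO. Of 2 NK genes tested, *Klrb1c* was called higher in KO in both subsets, with means of 661 against 142 in CD4 and 1458 against 207 in CD8. *Eomes* was lower in KO, at 394 against 819 in CD4 and 1769 against 3995 in CD8, and was called in CD8 only. The 1 erythroid marker in the table had medians of 37.9 and 196 in CD4 and 27.5 and 116 in CD8. The part of these cell types in the differences was not tested. The proliferation genes were called in 0 of 10 in either subset, and 1 of 10 was higher in KO in each. Their median log2 fold change was -0.32 in CD4 and -0.43 in CD8, beside -0.05 and -0.04 over all genes tested.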

How the data were processed

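Poly(A) RNA from 20 libraries was sequenced from strand-specific paired libraries. The authors aligned reads to GRCm38/mm10 with STAR, counted them per gene by strand and scaled them in DESeq2; the deposited signal is thus a read count per gene divided by the library's size factor (STAR 2.7.2b per the submitters' processing notes; the sources differ on the version). Whole reads were recovered for 100% of values (tolerance 0.01), which gave depths of 37547651 to 46966318 reads. X-linked sterol genes were not analysed here, and some genes of the lists are counted but not reported here.

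The 8 genes and the pathway lists were chosen with earlier results of these data known. Log2(normalized count + 1) was tested in limma 3.58.1 (trend; R 4.3.3) in genes with a mean of at least 10 over the libraries compared, with Benjamini-Hochberg adjustment over all genes tested and a threshold of 0.05; fold changes are on that scale. Exact permutation tests were 2-sided. Each comparison used only its own groups. Genes named besides the 8 came from the pathway lists, from the 10 nearest by r, or as checks of the labels. Same-number libraries of a genotype correlated in their deviations from group means (r = 0.271 to 0.538 in KO and 0.120 to 0.196 in WT). Between different numbers r was at most 0.116 within KO and 0.011 within WT, so the number was used as a block within genotype. Between a KO and a WT library of different numbers r reached 0.168. KO and WT both carry numbers 2 and 3, and the labels do not say whether equal numbers are related between genotypes. Their r was 0.07 to 0.08 in CD4 and -0.0024 to 0.099 in CD8. Different numbers gave -0.12 to 0.087 in CD4 and -0.12 to 0.13 in CD8. No 2 libraries of a group were alike within sampling noise (the lowest chi-square was 11.0 per degree of freedom). Alternatives were edgeR 4.0.16 and DESeq2 1.42.0 on the recovered reads, pseudocount 10, no filter, a mean of at least 50, quantile and 75th percentile scaling, no trend, all 20 libraries in the fit, the block and each library left out. Scripts were tested on simulated data. Promoters and exon lengths were RefSeq, GRCm38.p6.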

Additional observations from a re-analysis of the deposited data

Results flagged for a closer look

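Among 40 sets of 4 libraries (8 genes in 5 groups), 1 held a library far from the other three: *Srebf2* in KO DP T cells, where KO2 had 10090 normalized counts and the gap to the next library was 0.837 of the range, above the critical value for 4 samples. About 1 in 20 such sets is picked out in this way by chance.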

How the results depend on the processing

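Counts of members called kept their value, within 1.5 times, in 134 of 144 alternatives. In WT CD4 against CD8 the count moved from 1 to 0 without the variance trend, to 0 with all 20 libraries in a single fit, to 5 with the number as a block, and to between 0 and 4 with 1 library left out. In KO CD4 against CD8 it moved from 0 to 1 with the block. Between WT numbers it was between 1 and 3 with 1 number left out, and between KO numbers between 5 and 7.

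Log2 differences of members that did not pass the test changed sign as follows. In the paired fit on numbers 2 and 3, which KO and WT both carry, *Idi1* came to 0.038 and *Cyp51* to 0.34 in CD4. In CD8 *Sqle* came to 0.17, *Idi1* to 0.059, *Insig1* to 0.35, *Fdft1* to 0.16 and *Cyp51* to 0.32. The paired fit called no member. Quantile scaling brought *Insig1* in CD8 to 0.0093. With 1 library left out, KO over WT in CD4 lay between -0.033 and 0.24 for *Hmgcs1*, -0.11 and 0.22 for *Sqle*, -0.021 and 0.24 for *Insig1*, -0.024 and 0.17 for *Fdft1* and -0.34 and 0.048 for *Cyp51*. In CD8 it lay between -0.034 and 0.26 for *Hmgcs1*, -0.37 and 0.072 for *Sqle*, -0.13 and 0.097 for *Insig1*, -0.26 and 0.0066 for *Lss* and -0.43 and 0.11 for *Cyp51*. WT CD4 minus CD8 lay between -0.16 and 0.081 for *Insig1* and between -0.20 and 0.058 for *Cyp51*. The cause was not tested.

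The calls of the other pathway genes between KO and WT kept their side of the threshold in 158 of 188 fits with another scaling, filter, pseudocount, tool or set of libraries, and none changed direction. With 4 libraries a group, the confidence intervals printed in the results set the size of difference detectable here.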
